A study of Mus musculus with 12 samples.

Results

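The genes described here are Procr, Slamf1, Cd48, Cd34, Kit, Flt3, Tek and Esam, which encode surface proteins by which hematopoietic stem cells (HSCs) are sorted or to which their growth signals bind. They were taken from the deposited table by gene symbol, 1 row for each gene ID, and were 8 of its 40481 genes. RNA was sequenced from sorted HSCs of 2 genotypes, wild type (WT) and iE/R, in which doxycycline induces the leukemia-associated fusion ETV6-RUNX1. Each genotype was sampled in E14.5 fetal liver and in the bone marrow of mice aged 8 weeks. All 4 groups, WT included, were kept for 3 days in stem cell expansion culture with 1 µg/mL doxycycline, and each group had 3 libraries. The sources used here do not give the sort gate, the promoter and insertion site of the iE/R allele, whether WT cells carry part of the inducible system, or the animals behind a library. Nothing says that replicates came from separate cultures or animals, so p-values measure only the spread between these libraries, which may be technical.

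Mouse HSCs are commonly gated as SLAMF1 (CD150) positive and CD48 negative, and both proteins belong to the SLAM family of receptors that bind each other or themselves on neighbouring cells. CD48 is also the ligand of the SLAM relative CD244, and its presence marks most progenitors downstream of the stem cell. PROCR (EPCR) is the receptor of protein C and is high on cultured cells that keep stem cell activity, ESAM is a junction protein shared with endothelium, and CD34 is a sialomucin that is low on most adult mouse HSCs but present on fetal ones. KIT, FLT3 and TEK (TIE2) are receptor tyrosine kinases that bind stem cell factor, FLT3 ligand and angiopoietins. FLT3 marks multipotent and lymphoid-primed progenitors and is low or absent on HSCs. In bulk RNA, fewer cells of a type and less RNA per cell cannot be told apart, and RNA does not give the protein at the surface.

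The promoters of the genes with the smallest p in a genotype comparison are shown because ETV6-RUNX1 keeps the DNA-binding domain of RUNX1. Windows from 250 bases before to 50 bases after the start site were taken from RefSeq on GRCm38.p6, and 7 of the 8 genes had at least 1, the exception being Esam. Each was searched on both strands for the letters TGTGGT, which RUNX proteins bind, and GGAAGT, bound by many ETS proteins such as ETV6. Also searched were AGATAA, bound by the GATA family, and GAAANNGAA, the core of the interferon-stimulated response element. Variants of these letters were not searched. Capitals mark the matches.
Cd48: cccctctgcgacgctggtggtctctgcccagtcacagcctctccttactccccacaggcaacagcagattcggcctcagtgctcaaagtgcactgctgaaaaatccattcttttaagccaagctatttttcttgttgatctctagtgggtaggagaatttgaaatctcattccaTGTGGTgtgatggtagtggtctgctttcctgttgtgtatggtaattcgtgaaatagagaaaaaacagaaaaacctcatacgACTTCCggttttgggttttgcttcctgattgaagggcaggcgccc
Slamf1: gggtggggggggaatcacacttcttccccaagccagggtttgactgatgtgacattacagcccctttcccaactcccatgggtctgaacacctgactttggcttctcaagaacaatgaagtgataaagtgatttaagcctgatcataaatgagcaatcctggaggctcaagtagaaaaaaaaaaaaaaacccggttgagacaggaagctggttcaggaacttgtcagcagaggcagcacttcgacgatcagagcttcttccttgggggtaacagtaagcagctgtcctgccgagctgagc
Tek: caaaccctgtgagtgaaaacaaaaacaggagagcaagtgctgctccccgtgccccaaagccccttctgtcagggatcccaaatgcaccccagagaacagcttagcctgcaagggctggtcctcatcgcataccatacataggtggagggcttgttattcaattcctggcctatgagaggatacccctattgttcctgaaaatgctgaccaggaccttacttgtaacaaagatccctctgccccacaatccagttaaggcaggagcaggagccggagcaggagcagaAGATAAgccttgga
The windows lie on the plus strand at chr1:171681742-171682041 for Cd48, chr1:171766882-171767181 for Slamf1 and chr4:94739039-94739338 for Tek. That of Cd48 held a RUNX match beginning 76 bases before the start site and an ETS match on the minus strand (ACTTCC as printed) beginning 5 bases after it. None of the exact letters searched was found in the Slamf1 window, which does not exclude variants of them, and Tek had a GATA match 36 bases after the start. Outside these 3 genes, Flt3 had an ETS match on the opposite strand 75 bases before its start, and the windows of Procr, Cd34 and Kit held none. Among 32851 mouse promoter windows of 300 bases, 16.8% held the RUNX letters, 23.8% the ETS, 11.2% the GATA and 8.56% the interferon letters. A match describes letters and shows no binding.

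Library totals ranged from 32.3 to 64.5 M reads, and a floor of 3 reads was 0.0465 to 0.0928 CPM (counts per M reads). Such floors cover counting error only. The genes joined in the fusion were checked first. Mean Runx1 was 121 CPM in WT and 227 CPM in ETV6-RUNX1 fetal liver (0.90 ± 0.14 on the log2 scale, SE, adjusted p 0.000153), and 96.3 and 170 CPM in marrow (0.81 ± 0.14, adjusted p 0.00178). For Etv6 the means were 123 and 178 CPM, then 164 and 225 CPM, in the same order. Reads of the fusion and of the mouse genes cannot be told apart in the table. RNA of 7 stem cell markers, among them Mecom, Hlf, Meis1, Fgd5, Mllt3 and Hoxb5, was present in all groups. It summed to 1523 to 2221 CPM in WT marrow, 2135 to 2562 CPM in ETV6-RUNX1 marrow, 1577 to 1856 CPM in WT fetal liver and 2930 to 3316 CPM in ETV6-RUNX1 fetal liver. Xist, which the inactive X chromosome expresses, lay between 0.175 and 1.27 CPM in marrow and between 51.7 and 89.3 CPM in fetal liver. The summed level of Uty, Kdm5d, Eif2s3y and Ddx3y, which are Y-linked, was 229 to 389 CPM in marrow, 64.6 to 119 CPM in WT and 198 to 220 CPM in ETV6-RUNX1 fetal liver. The part of sex in the results was not tested.

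All 8 genes reached 1 CPM in all 12 libraries, with 34 (Flt3) to 28327 (Kit) reads. A gene is called here when its limma p, adjusted over the 14271 genes tested, was under 0.05, and fold changes are differences of log2(CPM + 1) with ETV6-RUNX1 minus WT. Fetal liver HSCs with ETV6-RUNX1 had more RNA of 5 of the 8 genes (Slamf1, Tek, Esam, Procr and Cd34) and less of 2 (Cd48 and Flt3), and Kit was not called. These 7 calls stand beside 43.1% of all tested genes called in fetal liver, 24.8% higher and 18.3% lower. In marrow, 2 of the 8 rose (Procr and Cd34) and Cd48 fell, beside 19.4% of all genes called, 14.4% higher and 4.93% lower. The median log2 fold change of the 8 genes was 0.82 in fetal liver, where that of all genes tested was 0.08, and 0.16 in marrow, where that of all genes was 0.13. With another scaling the marrow median of all genes moved to -0.001 (median of ratios) and that of the 8 genes to 0.005, or to -0.12 in edgeR. The marrow split of all calls, 2059 higher and 704 lower, became 1432 and 1397 under median-of-ratios scaling, 1384 and 1355 in edgeR and 1248 and 1324 after quantile normalization. The fetal liver split, 3544 higher and 2607 lower, became 2717 and 3746 after quantile normalization, which moved the median of all genes to -0.10.

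**Figure D1:**
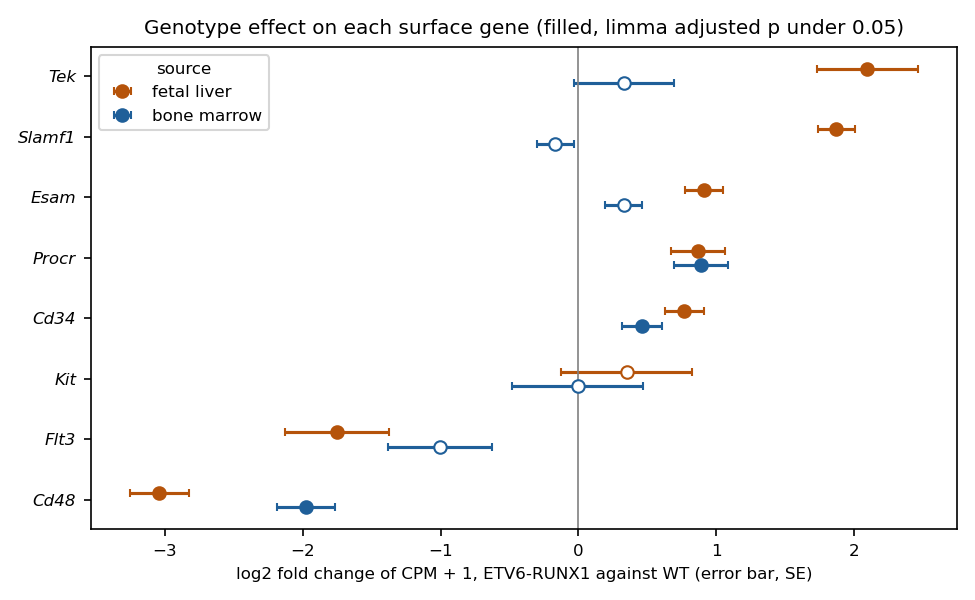
Log2 fold change of log2(CPM + 1) between ETV6-RUNX1 and WT (x axis, point and SE) for each of the 8 genes in fetal liver and bone marrow, with filled points for an adjusted p under 0.05. Cd48 lies farthest to the left in both sources, Slamf1 and Tek lie near 2 in fetal liver and near 0 in marrow, and Kit has open points.

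Cd48 fell in both sources. Its level in WT fetal liver was 188, 179 and 182 CPM in replicates 1 to 3, and in ETV6-RUNX1 fetal liver it was 22.0, 18.7 and 23.8 CPM. Marrow libraries had 215, 103 and 184 CPM in WT and 44.5, 35.2 and 40.5 CPM in ETV6-RUNX1. The groups of the same source did not overlap, and the ETV6-RUNX1 mean was 11.7% of WT in fetal liver and 24.0% in marrow. WT marrow replicate 2 was the low library of its group, with 2.08-fold between highest and lowest, while WT fetal liver libraries differed by 1.05-fold. The log2 fold change was -3.04 ± 0.21 (SE, adjusted p 8.77e-08) in fetal liver and -1.98 ± 0.21 (adjusted p 8.94e-05) in marrow. Both calls held under all 16 alternatives.

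Slamf1 rose in fetal liver alone by these calls. Its level was 71.6, 57.2 and 62.7 CPM in WT and 223, 265 and 219.6 CPM in ETV6-RUNX1 fetal liver, with a gap between the groups. Marrow libraries had 73.0, 74.3 and 74.7 CPM in WT and 59.1, 75.0 and 64.4 CPM in ETV6-RUNX1, and these overlapped. The log2 fold change was 1.87 ± 0.13 (adjusted p 1.13e-07), a ratio of means of 3.70, in fetal liver and -0.17 ± 0.13 (adjusted p 0.403) in marrow. The difference between these effects was 2.04 ± 0.19 (adjusted p 2.68e-05), and it stayed called in all 21 alternatives, between 1.79 and 2.13. WT and ETV6-RUNX1 marrow and WT fetal liver thus lay between 57.2 and 75.0 CPM in all 9 libraries, with ETV6-RUNX1 fetal liver above them.

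The ratio of Slamf1 to Cd48 CPM does not depend on a library's total. In WT it was 0.380, 0.320 and 0.343 in fetal liver and 0.340, 0.719 and 0.407 in marrow, so Cd48 exceeded Slamf1 in every WT library. With ETV6-RUNX1 it was 10.1, 14.2 and 9.23 in fetal liver and 1.33, 2.13 and 1.59 in marrow, so Slamf1 exceeded Cd48 in CPM in every such library. CPM is not corrected for gene length, and Slamf1 has 6156 bases of exon against 1189 for Cd48. Per kilobase of exon, mean Cd48 stayed above Slamf1 in ETV6-RUNX1 marrow (33.7 and 10.7 CPM). In ETV6-RUNX1 fetal liver it lay below (18.1 and 38.3 CPM). The log2 ratio of the CPM + 1 values differed by 4.91 in fetal liver and 1.81 in marrow (exact two-sided permutation test, p = 0.1 for each, the smallest that 3 against 3 libraries can give).

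**Figure D2:**
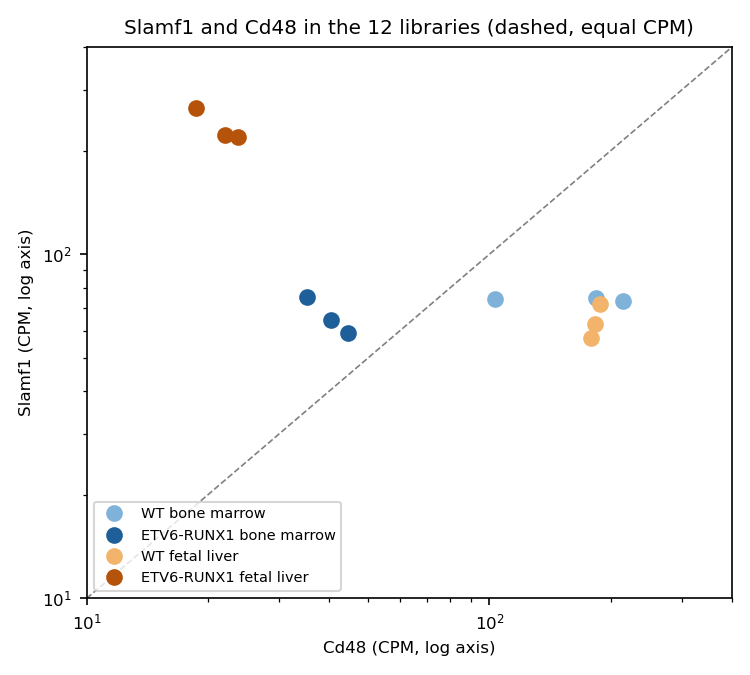
Slamf1 (y axis) against Cd48 (x axis) in CPM on log axes, 1 point for each of the 12 libraries, with a dashed line at equal CPM. CPM is not corrected for gene length. All 6 ETV6-RUNX1 libraries lie above the line and all 6 WT libraries below it, and the 3 of ETV6-RUNX1 fetal liver stand apart at the upper left.

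Summed granulocyte and monocyte RNA was lower with ETV6-RUNX1 in both sources, as was Cd48, and Flt3 below fell in fetal liver. The 8 markers of that list summed to 218 to 296 CPM in WT and 46.7 to 58.5 CPM in ETV6-RUNX1 fetal liver, and to 153 to 332 and 102 to 128 CPM in marrow. Between the ETV6-RUNX1 sources this sum was lower in fetal liver, where Flt3 was called higher. The tested genes of the list went both ways in that comparison, with Csf1r and Mpo called higher in fetal liver and Prtn3 lower. With ETV6-RUNX1, 2 of the list's 3 tested genes fell in fetal liver (Mpo and Prtn3) and Csf1r rose. In marrow Prtn3 fell, while Mpo and Csf1r were not called. Ctsg and S100a8 had no reads in any ETV6-RUNX1 fetal liver library, and S100a9 had none in WT fetal liver. Their part in the Cd48 and Flt3 results was not tested.

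Procr rose in both sources. It was 32.8, 52.6 and 41.7 CPM in WT and 66.2, 82.4 and 82.9 CPM in ETV6-RUNX1 fetal liver. Marrow had 70.8, 55.3 and 44.0 CPM in WT and 109, 90.5 and 113 CPM in ETV6-RUNX1. The genotypes did not overlap in either source. The log2 fold change was 0.87 ± 0.20 (adjusted p 0.00271) in fetal liver and 0.89 ± 0.20 (adjusted p 0.00738) in marrow, called under all 16 alternatives in each, and the difference between sources was -0.02 ± 0.28 (adjusted p 0.979).

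Esam, the junction protein, was 189.8, 187 and 164 CPM in WT and 299, 402 and 323 CPM in ETV6-RUNX1 fetal liver, without overlap. It was 213, 239.7 and 186 CPM in WT and 269, 274 and 254 CPM in ETV6-RUNX1 marrow, also without overlap. The rise in fetal liver was 0.91 ± 0.14 (log2 fold change ± SE, adjusted p 0.000134), while the marrow value of 0.33 ± 0.14 missed the threshold (adjusted p 0.108).

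Cd34 was 236, 248 and 205 CPM in WT and 386, 417 and 369.6 CPM in ETV6-RUNX1 fetal liver, a rise of 0.77 ± 0.14 (log2 fold change, adjusted p 0.000736). Marrow libraries had 223, 300.4 and 293 CPM in WT and 433, 349.8 and 338 CPM in ETV6-RUNX1, and the change of 0.46 ± 0.14 (adjusted p 0.0384) lay near the threshold. The genotypes did not overlap in either source. That marrow call was lost in 8 of 16 alternatives (adjusted p 0.00771 to 0.152 over the 16), median-of-ratios scaling (0.30, adjusted p 0.117) and edgeR (0.31, adjusted p 0.116) among them. It was also lost without WT marrow replicate 1 (0.32, adjusted p 0.123), ETV6-RUNX1 marrow replicate 1 (0.35, adjusted p 0.152) or ETV6-RUNX1 marrow replicate 2 (0.50, adjusted p 0.0690). Cd34 overlaps Gm16897, an antisense gene of 0.884 to 3.89 CPM, and the use of strand in counting is not given in the sources used here, so reads of the pair may be mixed. The log2 ratio of Procr to Cd34 differed between genotypes by 0.10 in fetal liver (p = 0.7) and 0.43 in marrow (p = 0.3, exact two-sided permutation tests), within the spread of replicates.

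**Figure D3:**
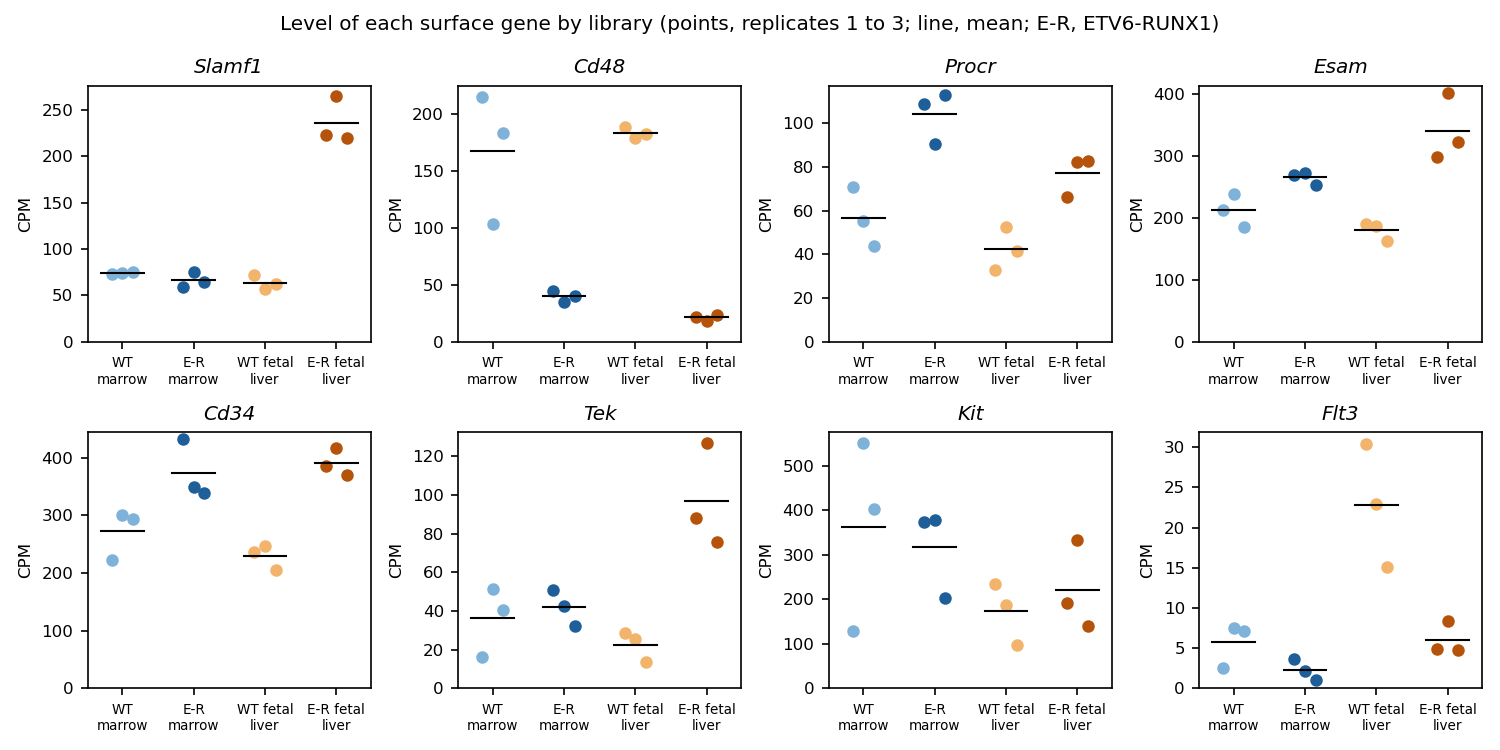
CPM (y axis, linear from 0) of each of the 8 genes in the 4 groups, with points for replicates 1 to 3 from left to right and a line at the mean. Slamf1, Tek and Esam are highest in ETV6-RUNX1 fetal liver, Cd48 is low in both ETV6-RUNX1 groups, Flt3 is highest in WT fetal liver and the Kit points of all groups overlap.

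Among the receptor kinases, Tek rose in fetal liver. The TIE2 gene was 28.4, 25.4 and 13.5 CPM in WT and 88.1, 127 and 75.9 CPM in ETV6-RUNX1 fetal liver, and the lowest of the latter exceeded every other library. WT marrow had 16.2, 51.6 and 40.8 CPM and ETV6-RUNX1 marrow 51.1, 42.5 and 32.2 CPM, which overlapped. The log2 fold change was 2.09 ± 0.36 (adjusted p 0.000414) in fetal liver and 0.33 ± 0.36 (adjusted p 0.554) in marrow. Tie1, the related receptor, had a fetal liver mean of 124 ± 20.4 CPM (SD, n = 3) in WT and 175 ± 19.8 CPM in ETV6-RUNX1 (0.50 ± 0.19, adjusted p 0.0417) and from 152 ± 41.4 to 234 ± 17.7 CPM in marrow (0.65 ± 0.19, adjusted p 0.0273). In edgeR neither Tie1 call was kept (adjusted p 0.0643 and 0.0642). The fetal liver Tie1 call was also lost without WT replicate 2 or 3 or ETV6-RUNX1 replicate 2 or 3, and the marrow call without replicate 1 of WT or replicate 1 or 2 of ETV6-RUNX1.

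Flt3 fell in fetal liver. It was 30.4, 22.9 and 15.04 CPM in WT and 4.85, 8.42 and 4.71 CPM in ETV6-RUNX1, without overlap, and the log2 fold change was -1.75 ± 0.38 (adjusted p 0.00193). Marrow levels were 2.59, 7.56 and 7.08 CPM in WT and 3.67, 2.19 and 1.05 CPM in ETV6-RUNX1, where 1 WT library lay within the ETV6-RUNX1 range. The marrow value of -1.01 ± 0.38 missed the threshold (adjusted p 0.0743). It passed it in 6 of 16 alternatives, which included median-of-ratios scaling, quantile normalization, edgeR, and leaving out WT marrow replicate 1 (-1.41, adjusted p 0.0181) or ETV6-RUNX1 marrow replicate 1 (-1.30, adjusted p 0.0475). Flt3 overlaps the antisense gene Gm26597, which had at most 0.552 CPM in any library.

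Kit, the receptor of stem cell factor, was not called in either source. It was 235, 186 and 97.5 CPM in WT and 191, 332 and 139 CPM in ETV6-RUNX1 fetal liver, and 129, 552 and 403 CPM in WT and 374, 378 and 202 CPM in ETV6-RUNX1 marrow. All groups overlapped. The log2 fold change was 0.35 ± 0.47 (adjusted p 0.582) in fetal liver and -0.01 ± 0.47 (adjusted p 0.994) in marrow. Kit had the widest spread between replicates of the 8 genes on the log scale, with an SE above those of Flt3 (0.38) and Tek (0.36).

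**Figure D4:**
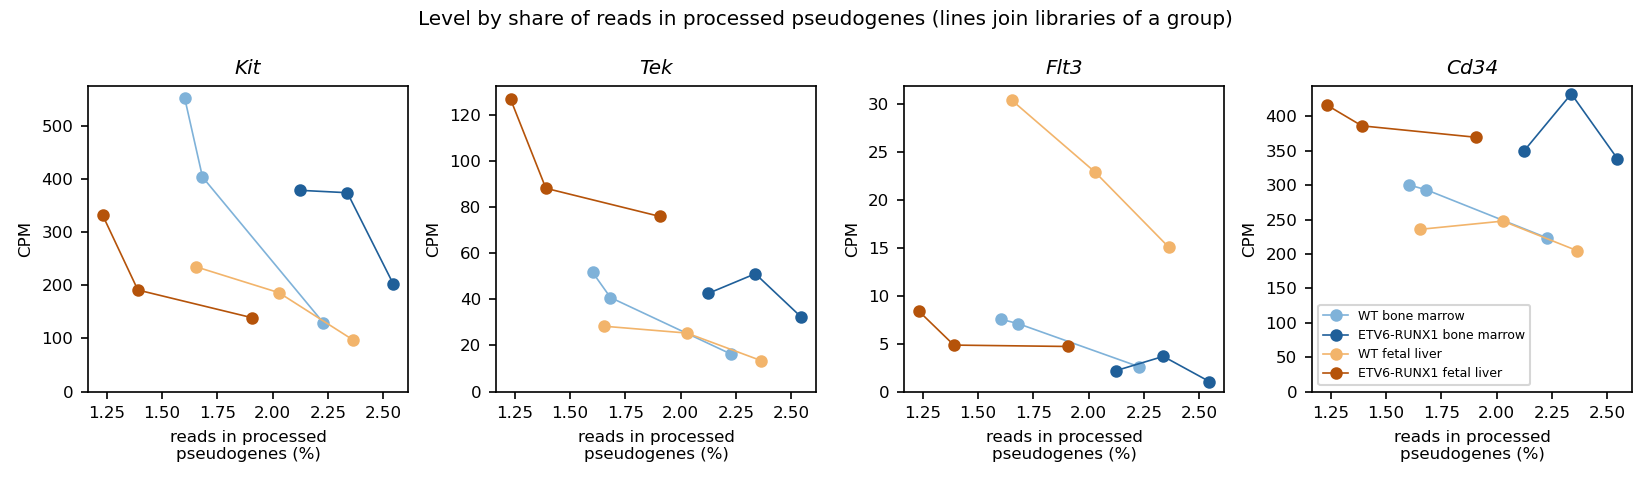
CPM (y axis) of Kit, Tek, Flt3 and Cd34 against the percent of a library's reads in processed pseudogenes (x axis), 1 point for each library, with lines joining libraries of a group. In each group the library with the largest share is the lowest for each of these 4 genes.

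That spread moved with a measure of library make-up, the percent of reads assigned to processed pseudogenes. The share was highest in WT marrow replicate 1 (2.23%, the others 1.60% to 1.68%), WT fetal liver replicate 3 (2.36%, 1.65% to 2.03%), ETV6-RUNX1 marrow replicate 3 (2.55%, 2.12% to 2.34%) and ETV6-RUNX1 fetal liver replicate 3 (1.90%, 1.23% to 1.39%). Kit, Tek, Flt3 and Cd34 were lowest in that library in 4 of 4 groups, as were 11.2% of all genes tested. Slamf1 and Esam were lowest there in 2 groups, and Procr and Cd48 in 0. The share also differed between groups, at 1.23% to 1.90% in ETV6-RUNX1 fetal liver and 2.12% to 2.55% in ETV6-RUNX1 marrow, without overlap. A fit with it as a covariate therefore cannot fully part it from the groups. With the share as a covariate, chosen after seeing the data, the Kit value became -0.74 (adjusted p 0.0371) in fetal liver and 1.07 (adjusted p 0.0105) in marrow. In that fit Tek rose in marrow by 1.08 (adjusted p 0.00967) and Esam by 0.44 (adjusted p 0.0415). The 7 fetal liver calls of the other genes stayed called in it, as did those of Procr, Cd48 and Cd34 in marrow.

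Genotype effects differed between the sources for 3 of the 8 genes, beside 9.19% of all genes called in that comparison, 5.56% higher and 3.62% lower in fetal liver. Slamf1, given above, was 1 of them. For Cd48 the difference was -1.06 ± 0.30 (adjusted p 0.0409) and for Tek 1.76 ± 0.52 (adjusted p 0.0469), both near the threshold. The Cd48 call was lost in 13 of 21 alternatives, among them median-of-ratios scaling (adjusted p 0.0605), edgeR (adjusted p 0.0806) and leaving out WT marrow replicate 2, any WT fetal liver replicate, ETV6-RUNX1 marrow replicate 1 or 3 or ETV6-RUNX1 fetal liver replicate 1 or 2 (-0.75 to -1.08, adjusted p 0.0581 to 0.0952). The Tek call was lost in 12 of 21, among them a pseudocount of 0.1 (adjusted p 0.0535) and leaving out WT marrow or WT fetal liver replicate 2 or 3, any ETV6-RUNX1 marrow replicate or ETV6-RUNX1 fetal liver replicate 1 or 2 (1.44 to 1.91, adjusted p 0.0571 to 0.120). With the pseudogene share as a covariate the Tek difference was 0.25 and that of Cd48 -0.56, and neither was called. As given above, that share differs between the groups, which limits this fit. For Esam (0.58 ± 0.19, adjusted p 0.0736), Cd34 (0.31 ± 0.20), Kit (0.35 ± 0.67) and Flt3 (-0.75 ± 0.53) no difference was called, although that covariate gave a called value for Kit (-1.82, adjusted p 0.0313) and Flt3 (-2.16, adjusted p 0.0340). The split of all interaction calls, 794 higher and 517 lower, became 1014 and 347 under median-of-ratios scaling and 812 and 293 in edgeR.

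Between the sources, WT cells differed for 1 of the 8 genes, beside 11.1% of all genes called, 3.38% higher and 7.77% lower in fetal liver. That gene was Flt3, at 22.8 ± 7.67 CPM in fetal liver and 5.74 ± 2.74 CPM in marrow (1.87 ± 0.38, adjusted p 0.00469). Kit (-0.92 ± 0.47) and Tek (-0.58 ± 0.36) were not called, but without WT marrow replicate 1 they were, at -1.53 (adjusted p 0.0143) and -1.07 (adjusted p 0.0213). The split of all WT calls, 482 higher and 1109 lower, became 644 and 906 after quantile normalization and 655 and 943 under median-of-ratios scaling. ETV6-RUNX1 cells differed for 4 of the 8 genes, beside 28.6% of all genes called, 10.4% higher and 18.2% lower in fetal liver. Slamf1 (1.82 ± 0.13, adjusted p 3.36e-07), Tek (1.18 ± 0.36, adjusted p 0.0260) and Flt3 (1.12 ± 0.38, adjusted p 0.0376) were higher and Cd48 (-0.87 ± 0.21, adjusted p 0.00779) lower in fetal liver. The Flt3 and Tek calls were each lost without ETV6-RUNX1 marrow replicate 2 or 3 or fetal liver replicate 1 or 2 (adjusted p 0.0626 to 0.143 and 0.0525 to 0.106). The pseudogene covariate ended them and that of Cd48, but the pseudogene share does not overlap between the ETV6-RUNX1 sources. The split of all ETV6-RUNX1 calls, 1484 higher and 2604 lower, became 2064 and 1451 under median-of-ratios scaling, 1878 and 1366 in edgeR and 1859 and 2074 after quantile normalization. These source comparisons and the genotype comparisons share libraries, and Xist and Y-linked levels differ between the sources as given above.

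Group means were then put in order for each gene, with neighbours compared by their ranges. For Slamf1, Tek and Esam the highest group was ETV6-RUNX1 fetal liver (236, 96.9 and 341 CPM), apart from the next. Procr was highest in ETV6-RUNX1 marrow (104 CPM), apart from ETV6-RUNX1 fetal liver (77.2 CPM). Cd48 stood at 21.5, 40.1, 167 and 183 CPM in ETV6-RUNX1 fetal liver, ETV6-RUNX1 marrow, WT marrow and WT fetal liver, and only the WT neighbours overlapped. Flt3 in WT fetal liver stood apart from the other groups, which overlapped with their neighbours.

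Levels were compared between genes as mean CPM per kilobase of exon. Cd48 ranked first of the 8 in WT, at 154 ± 4.10 in fetal liver and 141 ± 48.3 in marrow, ahead of Esam at 62.8 ± 5.02 and 74.2 ± 9.44. With ETV6-RUNX1 it ranked 7th in fetal liver (18.1 ± 2.17) and 5th in marrow (33.7 ± 3.91), and Esam ranked first (119 ± 18.8 and 92.7 ± 3.55). Slamf1 ranked 3rd in ETV6-RUNX1 fetal liver at 38.3 ± 4.16. Flt3 was last in every group, between 0.374 and 3.69 CPM per kilobase.

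For each gene the 2 most similar profiles over the 12 libraries were sought among 9565 named genes of at least 5 CPM on average, by the root mean square difference of centred log2(CPM + 1). Slamf1 was nearest Tec (0.21), a cytoplasmic tyrosine kinase, at 60.1 CPM in WT and 183 CPM in ETV6-RUNX1 fetal liver, and Nck2 (0.23), an SH2 and SH3 adaptor. Cd48 was nearest Gt(ROSA)26Sor (0.33) and Kctd14 (0.44). Gt(ROSA)26Sor is the noncoding gene of the ROSA26 locus, into which transgenes are often inserted. Its level went from 41.0 ± 7.46 to 5.59 ± 1.58 CPM in fetal liver and from 37.7 ± 3.95 to 7.59 ± 2.05 CPM in marrow with ETV6-RUNX1. Tek was nearest Inpp4a (0.21) and Abcc5 (0.25), and Procr was nearest Tmem8 (0.16) and Gimap5 (0.19). The nearest to Cd34 were Unc45a (0.08) and Elmsan1 (0.08), and to Esam they were Elk3 (0.10), an ETS factor, and Ppt1 (0.10). Kit was nearest Focad (0.30) and Zbtb38 (0.30). Flt3 had the largest distances, to Inafm2 (0.57) and Bdh1 (0.57). Among the 8 genes themselves the nearest pair was Cd34 and Esam (0.18) and the farthest Cd48 and Tek (2.11). The distances were not scaled by a gene's own spread over the libraries, so genes that vary little lie nearer to others. By the same measure that spread was 1.13 for Flt3, 0.73 for Kit, 0.35 for Cd34 and 0.37 for Esam. All distances are descriptions over libraries that share scaling and make-up.

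The SLAM family genes lie together on chromosome 1, where Cd48 (171682009 to 171705258, GRCm38) and Slamf1 (171767127 to 171801184) are neighbours on the plus strand with 61.9 kb between them. Of 6 family genes and adaptors tested (of 11 listed), 2 rose and 1 fell in fetal liver, and in marrow Cd48 and Ly9 fell. Slamf1 and Cd48 are themselves among these calls, and several lists below also hold some of the 8 genes. All list counts stand beside 24.8% of all genes called higher and 18.3% lower in fetal liver. In marrow these shares were 14.4% and 4.93%. Cd84, which follows Slamf1 on the chromosome and encodes a self-binding receptor, was 68.0, 54.2 and 59.6 CPM in WT and 200.1, 208 and 165 CPM in ETV6-RUNX1 fetal liver. Its log2 fold change was 1.64 ± 0.14 (adjusted p 6.99e-07) there and 0.31 ± 0.14 (adjusted p 0.134) in marrow. Ly9 (SLAMF3) was 7.67, 6.47 and 10.9 CPM in WT and 1.35, 2.38 and 2.20 CPM in ETV6-RUNX1 marrow, a fall of -1.64 ± 0.28 (adjusted p 0.00159), against 0.59 ± 0.28 (adjusted p 0.102) in fetal liver. Ly9 lies within Cd244a on the other strand, so its reads are uncertain. Cd244a, which encodes the receptor of CD48, was 5.47 to 8.21 CPM on average in the 4 groups and was not called. Slamf8 was 0.564 ± 0.401 CPM in WT and 3.16 ± 1.80 CPM in ETV6-RUNX1 marrow, but it passed the filter on low values only through the ETV6-RUNX1 marrow libraries, so its marrow call is not counted here.

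Receptor kinases of the KIT, FLT3 and TIE type were tested for 6 of 7 genes. In fetal liver Csf1r, Tek and Tie1 rose and Flt3 and Pdgfrb fell, beside 43.1% of all genes called. In marrow only Tie1 was called, beside 19.4% of all genes. Csf1r, the receptor of macrophage colony-stimulating factor, was 1.41, 0.385 and 0.682 CPM in WT and 13.6, 7.13 and 9.33 CPM in ETV6-RUNX1 fetal liver (2.59 ± 0.27, adjusted p 4.42e-06). Pdgfrb, a stromal growth factor receptor, went from 5.38 ± 3.15 to 0.229 ± 0.234 CPM there (-2.29 ± 0.29, adjusted p 3.07e-05). The median of this list was 0.43 in fetal liver, and it was -0.24 with the pseudogene covariate. In marrow it was 0.16, and -0.12 in edgeR. Of 8 ligands and partners, 2 were tested. Angpt1, the ligand of TIE2, was 142 CPM in WT and 182 CPM in ETV6-RUNX1 fetal liver (0.37 ± 0.22, adjusted p 0.205). Kitl, the KIT ligand, was below 1 CPM in each group's mean, and Flt3l was not analysed here.

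Relays and brakes of KIT and FLT3 signalling numbered 22, all tested, of which 12 rose and 0 fell in fetal liver (median 0.57). Cblb, a ubiquitin ligase that removes active receptors, went from 11.2 ± 1.20 to 36.7 ± 5.48 CPM (1.62 ± 0.18, adjusted p 9.46e-06). Sh2b3 (LNK), an adaptor that restrains KIT, went from 25.3 ± 2.43 to 58.7 ± 3.11 CPM (1.18 ± 0.15, adjusted p 2.27e-05), and Dok1, a docking adaptor, from 57.4 ± 4.94 to 112 ± 9.67 CPM (0.96 ± 0.12, adjusted p 3.60e-05). In marrow 3 rose (Dok1, Fyn and Sh2b3) and Dok2 fell, with a median of 0.28, beside 19.4% of all genes called. Dok2 went from 443 ± 19.2 to 239 ± 66.6 CPM in marrow (-0.93 ± 0.19, adjusted p 0.00434). The Src kinase Fyn had a marrow value of 0.53 ± 0.16 (adjusted p 0.0286) and Sh2b3 of 0.47 ± 0.15 (adjusted p 0.0350). Under median-of-ratios scaling, quantile normalization or edgeR, 0 rose and Dok2 alone was called. Without WT marrow replicate 2 or ETV6-RUNX1 marrow replicate 2 both the Fyn and the Sh2b3 call were lost. Without WT marrow replicate 1 that of Fyn was lost, and without WT marrow replicate 3 or ETV6-RUNX1 marrow replicate 1 or 3 that of Sh2b3.

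The protein C and thrombin receptor list had 7 of 11 genes tested, of which 3 rose and 2 fell in fetal liver and 1 rose (Procr) and 1 fell (Thbd) in marrow. Pros1, protein S, the cofactor of activated protein C, went from 60.6 ± 7.61 to 300.4 ± 23.1 CPM in fetal liver (2.30 ± 0.32, adjusted p 6.34e-05). Thbd, thrombomodulin, which activates protein C together with PROCR, fell in fetal liver from 10.8 ± 1.32 to 4.26 ± 1.66 CPM (-1.21 ± 0.30, adjusted p 0.00552). In marrow Thbd fell from 11.1 ± 4.13 to 4.48 ± 1.56 CPM (-1.11 ± 0.30, adjusted p 0.0213), a call lost without WT replicate 2 or 3 or ETV6-RUNX1 replicate 3. F2rl3, the thrombin receptor PAR4, fell in fetal liver from 119 ± 8.62 to 72.7 ± 23.8 CPM (-0.75 ± 0.19, adjusted p 0.00532). The ligand gene Proc was at or below 0.0606 CPM on average in each group.

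Sialomucins and junction molecules were all tested (10 genes). In fetal liver 6 rose and Podxl fell, and in marrow Cd34 and F11r rose and Podxl fell. F11r (JAM-A), a relative of ESAM, was 189, 159.8 and 171 CPM in WT and 634, 695 and 641 CPM in ETV6-RUNX1 fetal liver (1.92 ± 0.12, adjusted p 4.25e-08) and went from 186 ± 16.5 to 293 ± 31.5 CPM in marrow (0.66 ± 0.12, adjusted p 0.00295). Podxl, a sialomucin related to CD34, fell from 63.1 ± 16.3 to 23.0 ± 5.86 CPM in fetal liver (-1.42 ± 0.23, adjusted p 0.000275). Its marrow fall of -0.74 ± 0.23 (adjusted p 0.0394) was lost without WT replicate 2 or 3 or ETV6-RUNX1 replicate 1 or 2. Cdh5, VE-cadherin, was 5.90, 7.91 and 5.26 CPM in WT and 15.4, 15.6 and 15.6 CPM in ETV6-RUNX1 fetal liver (1.18 ± 0.18, adjusted p 0.000141) and below 1 CPM in all marrow libraries.

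In fetal liver the summed level of endothelial markers was higher with ETV6-RUNX1, as were Tek and Esam, while the tested markers went both ways. The 8 endothelial markers, which include Cdh5, summed to 176 to 196 CPM in ETV6-RUNX1 and 91.6 to 114 CPM in WT fetal liver, and to 104 to 111 and 85.6 to 109 CPM in marrow. In fetal liver 3 of 6 tested had a positive log2 fold change and were called (Cdh5, Lyve1 and Pecam1), and 3 had a negative one, of which Plvap was called and Kdr and Emcn were not. Lyve1 passed the filter only through the ETV6-RUNX1 fetal liver libraries and Plvap only through the WT fetal liver libraries, so nothing is read from these 2 calls. Cldn5 had at most 3 reads in each ETV6-RUNX1 library. In marrow 0 of the 6 were called. Megakaryocyte RNA was higher with ETV6-RUNX1 in fetal liver, as were Slamf1 and Tek. Its 7 markers summed to 6928 to 7480 CPM in ETV6-RUNX1 and 2942 to 4443 CPM in WT fetal liver. In marrow the sums were 333 to 1924 and 1171 to 1632 CPM, in the same order. Between the WT sources this sum was also higher in fetal liver, while Slamf1 and Tek were not called. Between the ETV6-RUNX1 sources all 7 markers were called higher in fetal liver (median 3.73), as were Slamf1 and Tek, beside 10.4% of all genes called higher. Of the 7 markers, 4 rose with ETV6-RUNX1 in fetal liver (Gp1ba, Gp1bb, Itga2b and Tubb1) and Gp9 fell, while in marrow 0 rose and Gp9 fell. Erythroid markers summed to 1324 to 2060 CPM against 676 to 938 CPM in fetal liver and 378 to 583 against 215 to 472 CPM in marrow, with Car1 at 0 in both ETV6-RUNX1 groups. Of 6 erythroid markers tested, 5 rose in fetal liver, while in marrow 0 rose, Rhag fell and the median was 0.03. Stem cell markers, given above, rose for 6 of 7 genes in fetal liver and 5 of 7 in marrow. The part of these cell types in the results was not tested. Mast cell and basophil markers, of interest for Kit, were low, at 5.72 to 13.8 CPM in sum over all libraries with Mcpt4 at 0 in each group. Lymphoid markers summed to at most 2.07 CPM and liver and stromal markers to 20.4 to 51.1 CPM.

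Other antigens used in stem and progenitor sorting were 25, of which 24 were tested. In fetal liver 16 rose and Thy1 fell, with a median of 0.81, and in marrow 8 rose and 0 fell, with a median of 0.17 (0.01 under median-of-ratios scaling, where 6 rose). Ly6a, the Sca-1 antigen, was 19.0 ± 3.92 CPM in WT fetal liver and 903, 629 and 1107 CPM in the ETV6-RUNX1 libraries there (5.44 ± 0.44, adjusted p 4.13e-07). Marrow Ly6a was 179, 54.1 and 38.4 CPM in WT and 282, 601 and 629 CPM in ETV6-RUNX1 (2.70 ± 0.44, adjusted p 0.00142), where replicate 1 was the high library of WT and the low library of ETV6-RUNX1. Cd38, an ectoenzyme whose protein marks adult mouse HSCs, went from 4.33 ± 0.749 to 41.2 ± 2.71 CPM in fetal liver (2.99 ± 0.23, adjusted p 2.09e-07) and from 5.65 ± 1.94 to 14.3 ± 2.91 CPM in marrow (1.23 ± 0.23, adjusted p 0.00289). Itga6, an integrin subunit, went from 88.4 ± 11.7 to 311 ± 14.9 CPM in fetal liver (1.81 ± 0.16, adjusted p 1.06e-06). Eng, endoglin, went from 41.5 ± 9.68 to 102 ± 9.22 CPM in marrow (1.30 ± 0.18, adjusted p 0.000395).

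**Figure D5:**
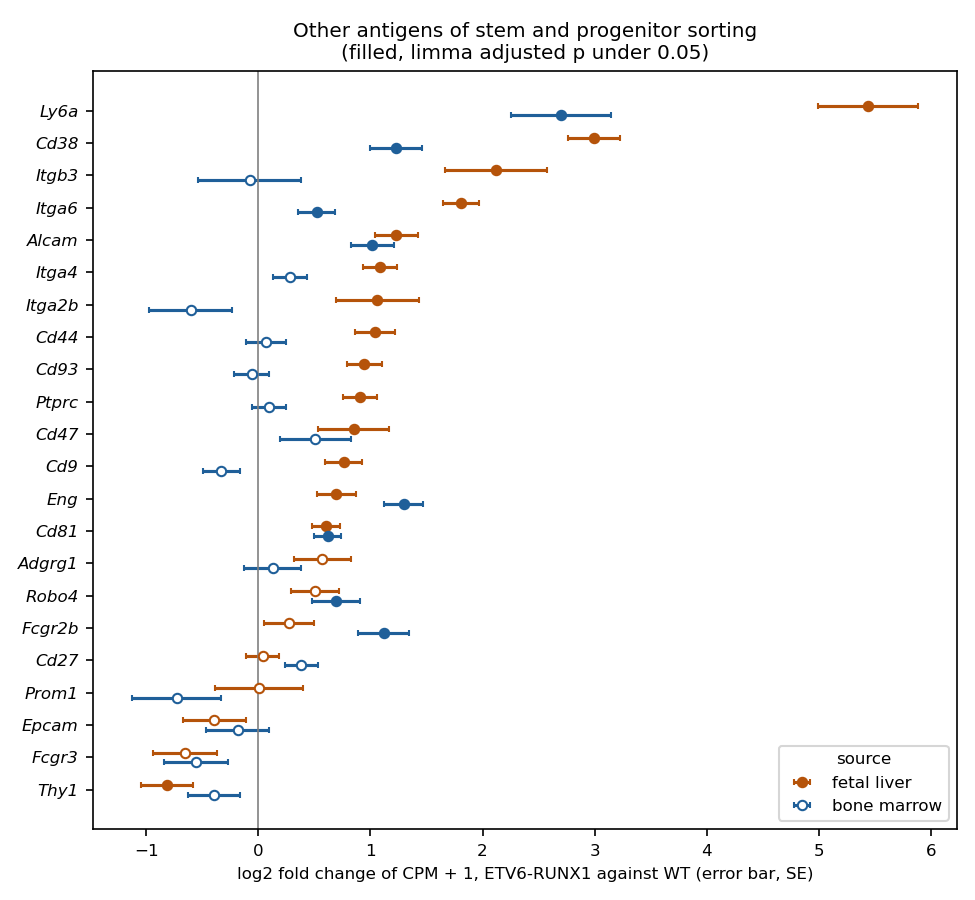
Log2 fold change of log2(CPM + 1) between ETV6-RUNX1 and WT (x axis, point and SE) of 22 of the other sorting antigens in fetal liver and bone marrow, with filled points for an adjusted p under 0.05. In fetal liver 14 filled points lie above 0 and Thy1 below it, and in marrow 8 lie above 0.

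Lineage antigens, by which mature cells are removed from a sort, were mostly too low to test. Of 14 such genes, 5 were tested, of which 3 rose in fetal liver (Itgam and Adgre1 among them) and 1 in marrow (Itgam). Itgam (CD11b), which fetal liver HSCs also carry, went from 4.33 ± 0.946 to 18.4 ± 1.55 CPM in fetal liver (1.87 ± 0.30, adjusted p 0.000230) and from 3.25 ± 2.17 to 22.2 ± 6.81 CPM in marrow (2.53 ± 0.30, adjusted p 0.000210).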

How the data were processed

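RNA was made into libraries with a stranded total RNA kit for small inputs (SMARTer Stranded Total RNA-Seq v2 Pico, per the labels' protocols). The deposited table gives CPM (counts per M reads) for each gene and library, as the authors made it. The submitters' processing notes name GRCm38, STAR 2.5.1a, featureCounts 1.4.6-p5, Salmon 0.8.2, edgeR and limma, with no role or order, and the strand setting of the counting is not given in the sources used here. The table had 40757 entries, of which 276 repeated a gene, and 11203 of the 40481 genes had no reads. Values were whole multiples of the worth of 1 read for 100% of values (tolerance 0.01), so reads were recovered for an edgeR alternative, and totals were 32.3 to 64.5 M reads.

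The 14271 genes that reached 1 CPM in 3 or more libraries were fitted with limma 3.58.1 (R 4.3.3, trended, two-sided) on log2(CPM + 1), a pseudocount that shrinks the fold changes of low genes, with coefficients for the 4 groups over all 12 libraries and Benjamini-Hochberg adjustment over all genes tested. Ratios of 2 genes were compared by exact permutation of libraries. The 8 genes, the gene lists and the tests were chosen with earlier results of these data known. Beyond the 8, up to 3 called genes of each list and genotype comparison are named by smallest p, given a group mean of 5 CPM or more, and for each of the 8 the 2 nearest profiles; others named as members of a count were chosen after their values were seen. Results for a few list genes are not reported here. Alternatives were a pseudocount of 0.1, 2 other filters (all genes with reads, or a mean of 5 CPM or more), median-of-ratios scaling, quantile normalization, a replicate block, array weights, only the 6 libraries compared, edgeR 4.0.16 (quasi-likelihood, TMM) and leaving out each library. A covariate, each library's percent of reads in processed pseudogenes, the count of the 8 genes called and the interaction of other named genes were added after seeing the data. The fits were tested on simulated data. Gene positions are from GENCODE vM21 on GRCm38, and 40254 gene IDs (99.44%) matched it.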

Additional observations from a re-analysis of the deposited data

Results flagged for a closer look

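The genotype effect differed between fetal liver and marrow, by the interaction term of limma with an adjusted p under 0.05, for 15 of the genes named. In that comparison 9.19% of all genes tested were called. Genes beyond the 8 were picked by the smallest p of a genotype comparison in 1 source. That choice favours a difference between sources, so nothing is read from the count. The values below are the fetal liver effect minus the marrow effect on the log2(CPM + 1) scale, with SE. Among the 8 surface genes these were Slamf1 (2.04 ± 0.19, adjusted p 2.68e-05), Tek (1.76 ± 0.52, adjusted p 0.0469) and Cd48 (-1.06 ± 0.30, adjusted p 0.0409). The Slamf1 value rests on groups that do not overlap in fetal liver and do in marrow. Cd48 fell in both sources, and its difference between them was lost in 13 of 21 alternatives.

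In the SLAM family, Cd84 had 1.33 ± 0.20 (adjusted p 0.000969) and Ly9 had 2.23 ± 0.39 (adjusted p 0.00305), the latter from a fall in marrow. Among receptor kinases, Csf1r had 2.26 ± 0.38 (adjusted p 0.00219) and Pdgfrb -1.83 ± 0.41 (adjusted p 0.0136). The signalling brakes Cblb and Sh2b3 had 1.24 ± 0.26 (adjusted p 0.00849) and 0.71 ± 0.21 (adjusted p 0.0450). Pros1, the protein C cofactor, had 1.63 ± 0.45 (adjusted p 0.0367). The junction genes F11r and Cdh5 had 1.26 ± 0.17 (adjusted p 0.000548) and 1.54 ± 0.25 (adjusted p 0.00210), but Cdh5 was under 1 CPM in every marrow library and passed the filter on low values only through fetal liver. Of the sort antigens, Cd38 had 1.77 ± 0.32 (adjusted p 0.00384), Ly6a 2.74 ± 0.63 (adjusted p 0.0156) and Itga6 1.29 ± 0.23 (adjusted p 0.00316).

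The calls of Slamf1, Cd84 and F11r held in 21 of 21 alternatives. That of Csf1r held in the 20 run for it, as Csf1r did not pass the filter of a mean of 5 CPM. Csf1r was low in WT fetal liver, as given above, and was not called between the WT sources. Its marrow effect may thus be poorly measured. Those of Cblb, Cd38, Itga6 and Ly9 were lost in 1, the pseudogene covariate, and that of Ly6a in 1, the fit of all genes with reads. Pdgfrb lost its call in 2, Pros1 in 11, Sh2b3 and Tek in 12 each, and Cd48 in 13. Cdh5 kept its call in 21 of 21, but another filter does not change its level of under 1 CPM in every marrow library. Its marrow effect is thus poorly measured, and nothing is read from this call. The Pros1 call was lost without each of 8 libraries in turn (adjusted p 0.0647 to 0.0901) and that of Sh2b3 without each of 10 (adjusted p up to 0.116).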

How the results depend on the processing

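All 7 fetal liver calls of the 8 genes, the marrow calls of Procr and Cd48 and the Slamf1 interaction kept direction and call in every alternative. Of 40 results on the 8 genes (gene by comparison), 17 kept both everywhere, 13 changed call and 10 changed sign in some alternative, and of 42 on other named genes 28, 14 and 0. The 42 were picked as results already called, while the 40 include results that were not called. The counts of the 2 sets are therefore not comparable. The cause was not tested for any of these changes. Genes called in marrow were 1601 with only the 6 libraries compared, and 1520 to 2924 leaving out 1 library. Interaction calls were 767 with all genes with reads, 3637 with array weights, 543 with the pseudogene covariate and 731 to 2332 leaving out 1 library. WT source calls were 4401 with array weights and 868 to 2781 leaving out 1 library. Of the 8 genes, 6 were called in marrow with the covariate, 1 in the interaction with all genes, 4 between WT sources with array weights, and 2 between ETV6-RUNX1 sources with all genes or the covariate. Leaving out 1 library gave 2 to 3 in marrow, 1 to 3 in the interaction, 1 to 3 in WT and 2 to 4 in ETV6-RUNX1.

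Sign changes with the covariate were Kit -0.74 in fetal liver, 1.07 in marrow and -1.82 in the interaction, Procr 0.49 and Cd34 -0.051 in the interaction, and Cd34 -0.23, Flt3 -0.044 and Tek -0.072 between ETV6-RUNX1 sources. Quantile normalization gave Kit 0.024 in marrow, Cd34 -0.028 between ETV6-RUNX1 sources and -0.0032 for the fetal liver Procr to Cd34 ratio. The Procr interaction was 0.063 under median-of-ratios scaling and 0.052 in edgeR. Leaving out 1 library, Kit ranged from -0.016 to 0.63 in fetal liver, -0.62 to 0.42 in marrow and -0.069 to 0.97 in the interaction, Tek from -0.15 to 0.66 in marrow, the Procr interaction from -0.19 to 0.15, WT source Cd48 from -0.12 to 0.41, and the fetal liver Procr to Cd34 ratio from -0.088 to 0.21.

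With the replicate number as a block, 5838 genes were called in fetal liver, 2334 in marrow, 1033 in the interaction, 1425 between WT and 3739 between ETV6-RUNX1 sources, and the Cd34 marrow call was lost (adjusted p 0.0589). Same-numbered libraries correlated between -0.44 and 0.39 in their deviations, 7 of 18 pairs over 0.1, and 8 of 36 best matches were the own number, so the numbers were not taken to pair libraries. Among the 8 genes Flt3 had the fewest reads, 34 in an ETV6-RUNX1 marrow library, and of the other named genes Csf1r had as few as 23 and Pdgfrb as few as 1.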
